A study of Mus musculus with 10 samples.

Results

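Transcript signals of 8 crystallin genes were followed in whole mouse lenses. They were the alpha crystallins Cryaa and Cryab, the acidic beta crystallins Cryba1, Cryba2 and Cryba4, and the basic beta crystallins Crybb1, Crybb2 and Crybb3. The members were taken by gene symbol, as every probe set that carried 1 of these symbols and no other. They made up 8 of the 18193 genes named on the array and 10 of its 45101 probe sets. Cryab had 3 probe sets and each of the others had 1. Lenses were wild type (WT) or came from mice labelled Klf4-conditional null (Klf4CN), in which the gene of the zinc-finger transcription factor Klf4 is deleted conditionally. The labels name neither the driver of the deletion nor the strain of the mice, and no allele or agent shared by all groups is named. At embryonic day 16.5 (E16.5) each genotype had 3 arrays, each of an independent preparation pooled from 5 embryos. At postnatal day 56 (PN56) each genotype had 2 arrays, each of an independent preparation pooled from 3 young adult mice.

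Crystallins are the water-soluble proteins that fill the lens fibre cell and give the lens its refractive index. The alpha crystallins are small heat shock proteins that hold partly unfolded proteins in solution, and they form large mixed assemblies. Cryab is also made in muscle, heart and brain, whereas Cryaa is largely restricted to the lens. The beta crystallins are structural proteins built of Greek key motifs. They form dimers and larger oligomers, and the acidic and basic members carry terminal extensions of different length. Mutations in several of these genes cause cataract.

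The genes lie on 5 chromosomes of the assembly GRCm38.p6. Cryaa spans chr17:31677931-31681730, Cryab chr9:50745951-50756636, Cryba1 chr11:77718614-77725293 and Cryba2 chr1:74889934-74898842. The other 4 genes lie on chromosome 5. Cryba4 (chr5:112246492-112263625) and Crybb1 (chr5:112254563-112269585) have annotated spans that overlap on opposite strands. Crybb2 (chr5:113058258-113070117) and Crybb3 (chr5:113075839-113082236) follow each other. In both pairs 0 other protein-coding genes have their lowest coordinate between the lowest coordinates of the pair.

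The sequences before the transcription start are shown because the Maf family of factors is known to act on crystallin promoters and because 1 member, Crybb2, changed more with age than the rest. RefSeq's table for GRCm38.p6 held 7 of the 8 promoters, and Cryab is named only. The 150 bases that end at the base before the start are printed 5′ to 3′ along the gene, with each Maf half-site (TGCTGA, or TCAGCA on the other strand) in capitals. They cover chr17:31677781-31677930 on the plus strand for Cryaa, chr11:77725294-77725443 on the minus strand for Cryba1, chr5:112255670-112255819 on the plus strand for Crybb1, chr5:113081585-113081734 on the minus strand for Crybb3 and chr5:113070118-113070267 on the minus strand for Crybb2.
Cryaa: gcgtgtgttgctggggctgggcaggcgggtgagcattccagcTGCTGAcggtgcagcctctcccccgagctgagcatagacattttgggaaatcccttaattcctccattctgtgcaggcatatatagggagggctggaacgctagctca
Cryba1: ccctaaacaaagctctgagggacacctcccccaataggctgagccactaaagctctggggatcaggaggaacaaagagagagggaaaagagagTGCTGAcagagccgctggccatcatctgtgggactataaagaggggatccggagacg
Crybb1: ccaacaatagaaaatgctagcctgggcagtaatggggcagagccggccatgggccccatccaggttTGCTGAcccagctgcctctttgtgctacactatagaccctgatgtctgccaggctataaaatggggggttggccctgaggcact
Crybb3: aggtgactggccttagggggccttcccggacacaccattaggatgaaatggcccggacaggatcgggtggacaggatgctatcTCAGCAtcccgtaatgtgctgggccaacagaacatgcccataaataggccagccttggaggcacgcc
Crybb2: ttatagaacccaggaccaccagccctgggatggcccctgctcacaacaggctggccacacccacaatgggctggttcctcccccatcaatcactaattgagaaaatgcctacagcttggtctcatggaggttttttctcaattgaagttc
The half-site was found on either strand of the 250 bases before the start in 6 of the 7 member promoters, against 16.1% of all 32851 promoters in the table. Crybb2 was the member without a match. Whether the half-site, or any other motif searched, has a part in the change with age was not tested. The last match ended 103 bases before the start in Cryaa, 52 in Cryba1, 144 in Cryba2, 72 in Cryba4, 79 in Crybb1 and 62 in Crybb3, and Cryba4 held 3 matches. The CACCC core bound by Klf4 and other Kruppel-like factors (CACCC or GGGTG) was found in Cryaa, Cryba2, Crybb2 and Crybb3, that is in 4 of 7, against 52% of all promoters. The core ACAAAG (or CTTTGT), bound by Sox factors, was found in 3 of 7 against 16.5%, TATAAA (or TTTATA) in 2 of 7 against 12.4%, and CCAAT (or ATTGG) in 2 of 7 against 33.8%. The heat shock element cores GAANNTTC and TTCNNGAA were found in 0 and 1 of 7, against 6.69% and 7.17%, and TGANTCA in 1 of 7 against 6.75%. In the member promoters 0 matches of different motifs overlapped. A match is a run of letters and no measured site. For Cryba2, Cryba4, Crybb1 and Crybb3 the bases searched lie inside the annotated span of the gene. The start used there is thus not the outermost one, and the transcript it belongs to is not known here.

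Array signals are linear and had been scaled array by array, so that the mean of each array without its outer 2% at each end was 500. The median signal of an array lay between 63 and 76.9 at E16.5 and between 91 and 108.6 at PN56. Correlations between replicate arrays over log2 signals lay between 0.952 and 0.9811. The tissue label was checked by 10 fibre cell markers, whose summed signal was 179800 to 213200 on the E16.5 arrays and 338400 to 498000 on the PN56 arrays. Mip, the water channel of the fibre membrane, had mean signals from 28020 to 60660 over the 4 groups, and the dimmest marker mean of the list was 1853, for Birc7 in Klf4CN at E16.5. Klf4 itself had mean signals of 739 ± 295 and 1079 ± 278 (SD, n = 3) in WT and Klf4CN lenses at E16.5, and of 185 ± 40.3 and 717 ± 20.9 (SD, n = 2) at PN56. It was thus higher, not lower, in the PN56 lenses labelled Klf4CN (log2 difference 1.88, SE 0.34, limma adjusted p = 0.004108). Where its probe set lies relative to the deleted part is unknown here, so this signal does not check the labels.

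All 8 members were among the 13440 genes tested. Differences below are log2 differences of signal + 16 from 1 limma fit over all 10 arrays, given with their standard error (SE). A difference is called where its p, adjusted by Benjamini-Hochberg over all genes tested, is under 0.05. Levels are compared between groups within a probe set and not between genes.

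From E16.5 to PN56 all 8 members rose in WT lenses, and the basic beta crystallin Crybb2 rose by far more than the others. In the WT comparison 25% of all genes tested were called higher, and the median difference of all genes was -0.04. The members' median was 1.91, with a range from 1.29 to 5.15. With the hybridisation controls as the reference, described with the adult comparison, all 8 members were called higher, but the WT median was 1.01, with a range from 0.39 to 4.25. With quantile normalization the WT median was 0.79, 6 members were called higher, and Cryab (-0.11) and Cryba4 (0.052) were not. The same 8 members rose in the lenses labelled Klf4CN, where 21.6% of all genes were called higher and the members' median was 1.66 against -0.10 for all genes. In neither genotype did the E16.5 and PN56 signals of any member overlap, against 33.4% of all genes non-overlapping and higher in WT and 30.7% in Klf4CN. Other lists moved with age too. In WT, all 10 macrophage markers and all 7 vessel endothelium markers tested fell (medians -2.14 and -3.14), and 8 of 9 photoreceptor markers rose (median 3.51). The part of these lists in the members' change was not tested. The control transcript DapX-3 read 3655 ± 518 in WT at E16.5 (SD, n = 3) and 12.9 ± 2.33 at PN56 (SD, n = 2). In Klf4CN it read 3576 ± 381 at E16.5 and 6.55 ± 0.0707 at PN56. The arrays of the 2 ages thus differed in a control transcript too, so age and array preparation cannot be told apart here. These are bulk lenses, so fewer cells of a type and less RNA per cell cannot be told apart.

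Among the alpha crystallins, Cryaa had signals of 21881, 20822 and 24306 in the 3 WT arrays at E16.5 and of 93649 and 99905 in the 2 WT arrays at PN56. In the lenses labelled Klf4CN its signals were 18603, 20669 and 15227 at E16.5 and 64425 and 63472 at PN56. The adult WT arrays were the highest, the adult Klf4CN arrays next, and the 2 embryonic groups lowest with no overlap between any pair of these 4 groups. The change with age was 2.12 (SE 0.12, adjusted p = 3.595e-08) in WT, a 4.34-fold rise, and 1.83 in Klf4CN.

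Cryab changed less with age than Cryaa. By its brightest probe set the signals were 46610, 45767 and 55001 in WT and 49183, 45069 and 46533 in Klf4CN at E16.5, so that the embryonic genotypes overlapped. At PN56 they were 110969 and 129572 in WT and 85263 and 90878 in Klf4CN. The rise was 1.29 (SE 0.11, adjusted p = 7.411e-07) in WT and 0.91 (adjusted p = 1.631e-05) in Klf4CN. After quantile normalization, which gives all arrays the same distribution, the Cryab change with age was -0.11 in WT and -0.21 in Klf4CN, so its direction depended on the scaling.

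The second Cryab probe set had signals from 33104 to 37503 in WT and from 29128 to 32033 in Klf4CN at E16.5, and of 98251 and 113807 in WT and 70550 and 68055 in Klf4CN at PN56. Its rise with age was larger than that of the brightest probe set, 1.59 in WT and 1.18 in Klf4CN. The third was dim, between 27 and 159.7 on the 10 arrays, with a change of 1.63 in WT (adjusted p = 0.003412) and 0.61 in Klf4CN (adjusted p = 0.2111) when every probe set was tested. The 3 probe sets thus had the same direction with age and differed in size.

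Of the acidic beta crystallins, Cryba1 and Cryba2 rose by more than Cryba4 in both genotypes. Cryba1 signals at E16.5 were 28485, 30533 and 34655 in WT and 26067, 29139 and 21897 in Klf4CN. At PN56 they were 109160 and 126680 in WT and 82657 and 78192 in Klf4CN. Its rise in WT was 1.92 (SE 0.13), or 3.78-fold, and in Klf4CN 1.65.

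Cryba2 signals were 27252, 27621 and 31894 in WT and 25787, 26496 and 22669 in Klf4CN at E16.5. They rose to 96077 and 108168 in WT and to 66758 and 67703 in Klf4CN at PN56, by 1.82 (SE 0.10) and 1.43. The embryonic groups were separate but close, and the adult groups stood well apart.

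Cryba4 rose less, from 34372, 36627 and 39752 to 84263 and 97778 in WT, a difference of 1.30 (SE 0.10). In the lenses labelled Klf4CN it went from 34094, 36037 and 30705 to 64062 and 65994, a difference of 0.95. Under quantile normalization the Cryba4 differences were 0.05 in WT and -0.15 in Klf4CN, and neither was called.

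Among the basic beta crystallins, Crybb1 had signals of 19409, 20676 and 24172 in WT and 18707, 19677 and 14929 in Klf4CN at E16.5. At PN56 they were 93741 and 113138 in WT and 73113 and 73934 in Klf4CN, rises of 2.27 (SE 0.13) and 2.06. Crybb3 had signals of 23898, 25758 and 31728 in WT and 24333, 26233 and 20001 in Klf4CN at E16.5, and of 94326 and 108220 in WT and 73161 and 75005 in Klf4CN at PN56. Its rises of 1.91 (SE 0.14) and 1.66 were close to those of Cryba1.

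Crybb2 had the largest change with age of the 8 members in both genotypes. It had signals of 3272, 2946 and 5209 in the WT arrays at E16.5 and of 122868 and 140664 at PN56. In the lenses labelled Klf4CN it had 3982, 4534 and 5613 at E16.5 and 95166 and 99263 at PN56. The difference with age was 5.15 (SE 0.20, adjusted p = 1.977e-09) in WT, a 35.5-fold rise, and 4.38 (SE 0.20) in Klf4CN, a 20.8-fold rise. The WT difference stood at percentile 99.84 of all genes tested, and the other members lay between percentiles 88.85 and 96.82.

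**Figure D1:**
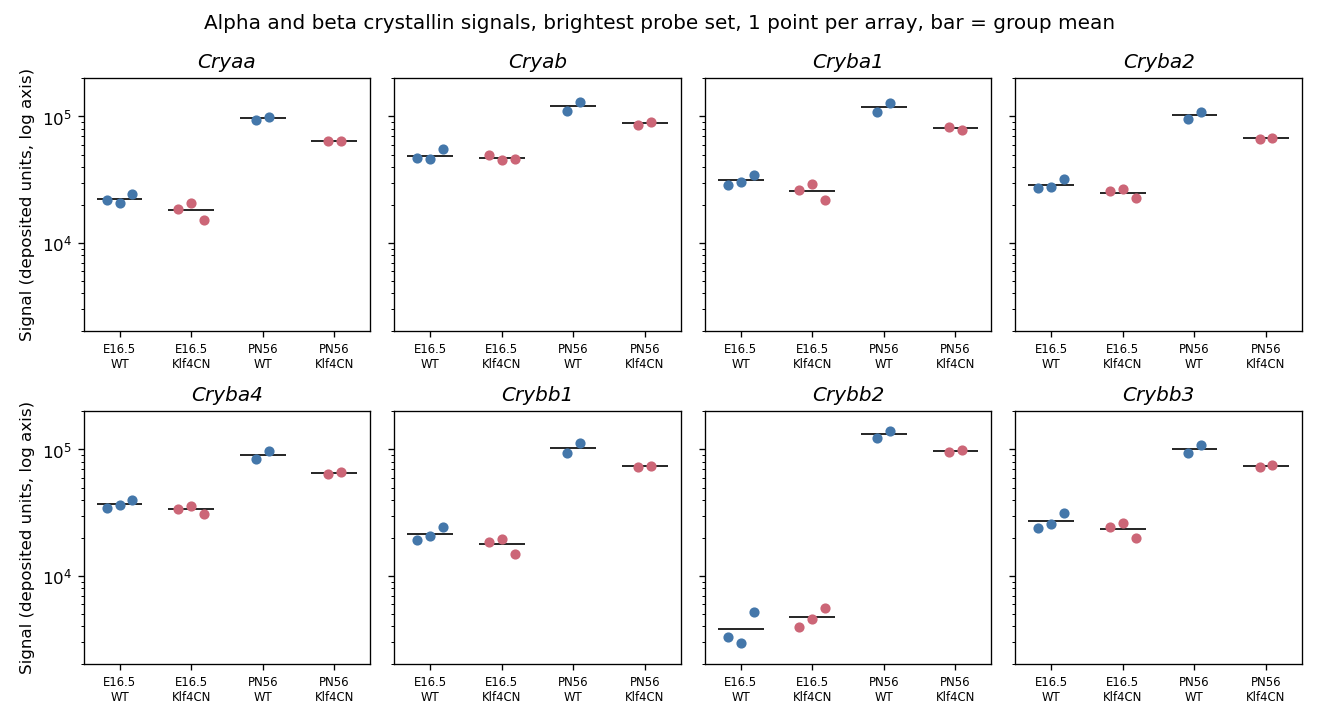
Signal of each member by its brightest probe set (log axis, deposited linear units), 1 point per array, with a bar at the group mean, for WT (blue) and Klf4CN (red) lenses at E16.5 (3 arrays each) and PN56 (2 arrays each). Every member is higher at PN56 than at E16.5, Crybb2 starts from between 2946 and 5613 at E16.5, and at PN56 both Klf4CN points lie below both WT points in each panel.

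**Figure D2:**
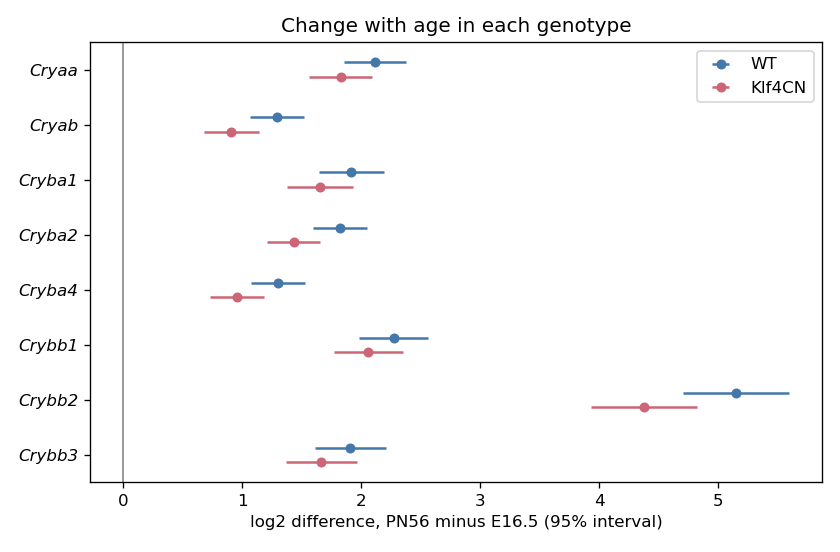
Log2 difference between PN56 and E16.5 for each member in WT (blue) and Klf4CN (red) lenses, with bars for the 95% interval of the limma fit. Differences in WT run from 1.29 for Cryab to 5.15 for Crybb2, and the Klf4CN point lies to the left of the WT point for each member.

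Signals divided within an array cancel whatever scales that array as a whole. The brightness of different probe sets cannot be compared, so only the change of such a ratio between arrays is read. Relative to Cryaa on the same array, the log2 ratio of Crybb2 was -2.74, -2.81 and -2.22 in WT and -2.22, -2.18 and -1.44 in Klf4CN at E16.5. At PN56 it was 0.39 and 0.49 in WT and 0.56 and 0.65 in Klf4CN, so the ratio moved by 3.03 in WT and 2.55 in Klf4CN with no overlap between ages. Crybb2 therefore increased relative to Cryaa under any scaling of whole arrays.

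Cryab and Cryba4 moved the other way relative to Cryaa. The Cryab ratio lay between 1.09 and 1.61 on the 6 embryonic arrays and between 0.24 and 0.52 on the 4 adult arrays. Cryab ranked from 1 to 3 among all probe sets of each embryonic array, and a ratio does not cancel a limit on the brightest signals. The Cryba4 ratio went from between 0.65 and 1.01 to between -0.15 and 0.06. Between Cryab and Cryba4 themselves the ratio changed by -0.008 in WT and -0.047 in Klf4CN with age, and the ages overlapped in both. The ratio of Cryba1 to Crybb3 changed by 0.01 in WT and -0.009 in Klf4CN, again with overlap. Of the 28 pairs of members, these 2 were the pairs whose ages overlapped in both genotypes.

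**Figure D3:**
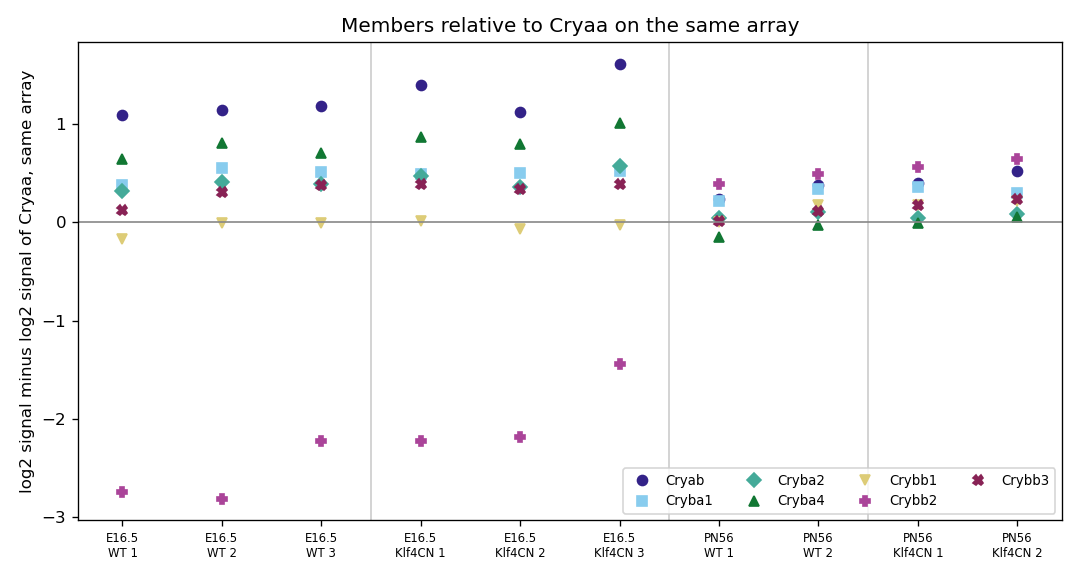
Log2 signal of the other 7 members minus that of Cryaa on the same array, for all 10 arrays, with grey lines between groups. Crybb2 goes from between -2.81 and -1.44 at E16.5 to between 0.39 and 0.65 at PN56, while Cryab and Cryba4 come down, and at PN56 the 2 genotypes lie close together.

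At PN56 the comparison asks how the adult lens transcriptome differs between mice labelled Klf4CN and WT. Signals of 6 of the 8 members, Cryaa, Cryab, Cryba1, Cryba2, Cryba4 and Crybb1, fell in the lenses labelled Klf4CN and 0 rose, while 6.98% of all genes tested were called lower and 6.04% higher. The members' median difference was -0.48, against -0.06 for all genes, and the range was narrow, from -0.60 to -0.44. For all 8 members both Klf4CN arrays lay below both WT arrays, as they did for 29% of all genes. By their roles, both alpha crystallins, all 3 acidic beta crystallins and 1 of 3 basic beta crystallins were called lower. All 3 basic members had negative differences, from -0.49 to -0.44, so these counts do not show a difference between the roles.

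The 2 largest differences were those of Cryba2 and Cryaa. Cryba2 went from a mean of 102100 ± 8550 in WT to 67230 ± 669 in Klf4CN (SD, n = 2), a difference of -0.60 (SE 0.11, limma adjusted p = 0.005378). Cryaa went from 96780 ± 4420 to 63950 ± 674, also -0.60 (SE 0.13, limma adjusted p = 0.01196). Both were 1.51 or 1.52 times lower in the lenses labelled Klf4CN, and these 2 members were called also when only the 4 adult arrays were fitted. Cryba2 was called in 22 of the 24 alternative settings, and Cryaa in 17. Many of these settings, such as leaving out an embryonic array, cannot change the PN56 difference itself. With quantile normalization or the hybridisation controls as the reference neither was called.

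Cryba1 fell by 0.55 (limma adjusted p = 0.02287), Cryba4 by 0.48 (adjusted p = 0.01596) and Crybb1 by 0.49 (adjusted p = 0.04769). Crybb1 was near the threshold and was called in 5 of 24 alternative settings. Crybb3 had a difference of -0.45 (SE 0.15, adjusted p = 0.07001) and Crybb2 one of -0.44 (SE 0.22, adjusted p = 0.2236, 95% interval from -0.92 to 0.05). Both missed the threshold although their differences were of the size of the others, and their standard errors were the 2 largest of the 8. These standard errors draw on the spread within all 4 groups, the embryonic ones included. For Crybb2 the SD as a percentage of the mean was 32.1% in WT and 17.6% in Klf4CN at E16.5. At PN56 it was 9.55% and 2.98%, against 10.9% and 4.51% for Cryab, which was called.

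For Cryab the brightest probe set fell by 0.45 (limma adjusted p = 0.0254). With every probe set tested, the second fell by 0.61 (adjusted p = 0.004893). The third, which had mean signals of 141 ± 26.4 in WT and 74.6 ± 5.3 in Klf4CN (SD, n = 2), had a difference of -0.79 that did not pass (adjusted p = 0.2615). The 3 probe sets had 1 direction at PN56.

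**Figure D4:**
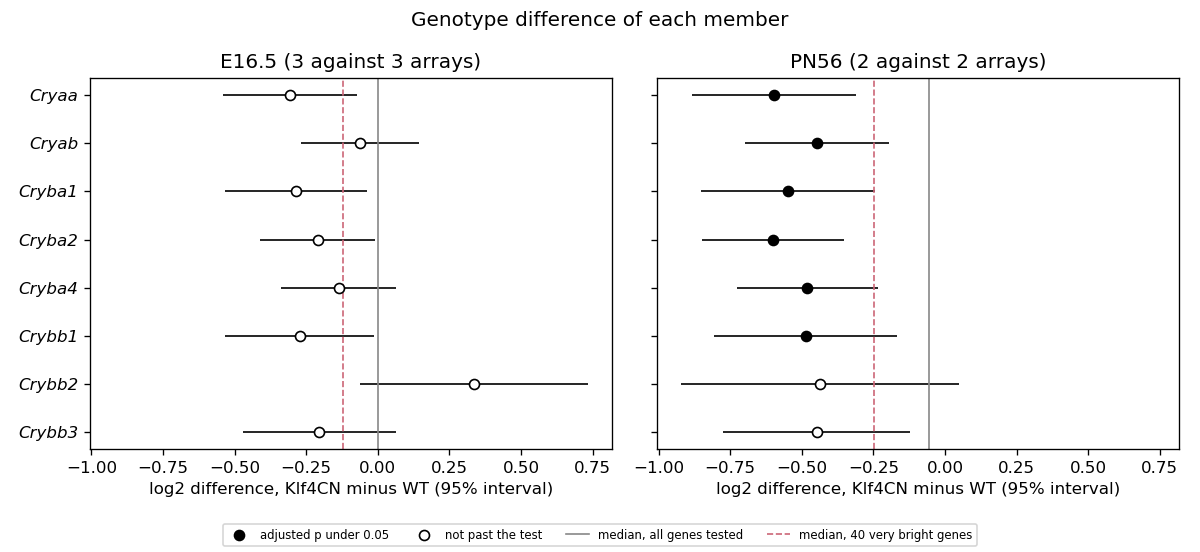
Log2 difference between Klf4CN and WT for each member at E16.5 and PN56, with bars for the 95% interval, filled points where the adjusted p is under 0.05, a grey line at the median of all genes tested and a dashed red line at the median of 40 very bright genes outside the crystallins. All 8 PN56 points lie between -0.60 and -0.44 and 6 are filled, and none is filled at E16.5.

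The direction of the PN56 difference depended on what the arrays were referred to. The hybridisation control CreX-3, a bacteriophage transcript spiked into the hybridisation mix in an amount that the labels do not give, read 78240 ± 7930 on the WT arrays and 52250 ± 1400 on the Klf4CN arrays at PN56 (SD, n = 2). When each array was referred to its hybridisation controls, an alternative chosen after the data were seen, the differences of the 8 members lay between 0.02 and 0.18 and 0 were called. On that reference the median of all genes was 0.56. With each array centred on its median, all 8 differences stayed negative, from -0.47 to -0.31, and 1 member, Cryba2, was called. With quantile normalization 0 were called, and 7 of 8 were negative, from -0.29 to 0. Cyclic loess gave 7 calls and values from -0.74 to -0.53. Relative to the median of all genes, the members' median was -0.43 as deposited, -0.14 under quantile normalization and -0.60 under loess. Median centring and the hybridisation controls shift all genes of an array equally, so they leave this value as it is by construction.

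**Figure D5:**
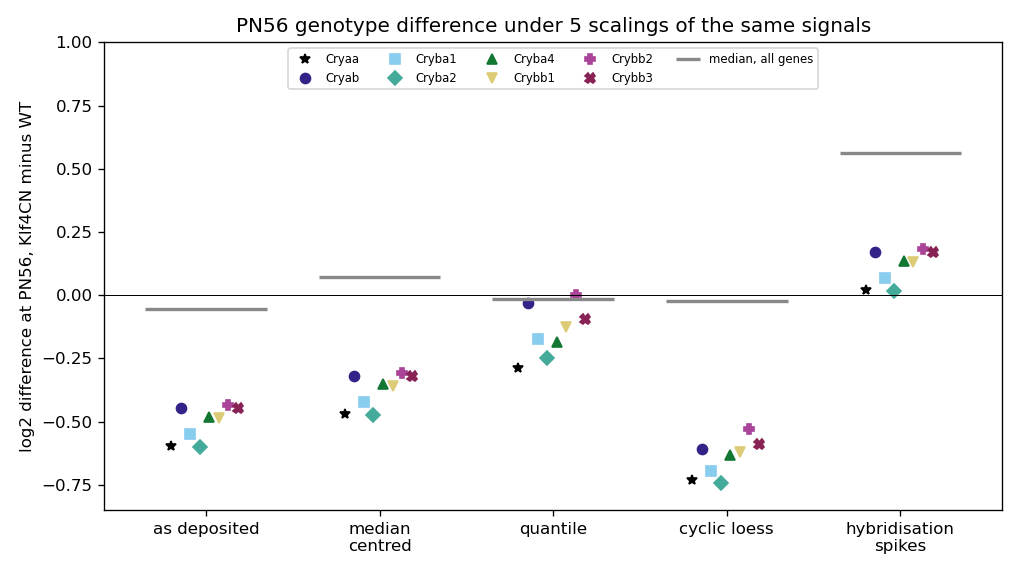
Log2 difference between Klf4CN and WT at PN56 for each member (symbols) under 5 scalings of the same signals, with a grey bar at the median of all genes tested. The members lie between -0.60 and -0.44 as deposited and between 0.02 and 0.18 with hybridisation controls as the reference, where the median of all genes is 0.56.

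The members are very bright, so other very bright genes were set beside them. Of 40 genes outside the crystallins with a mean signal of 50000 or more on the adult arrays, a list chosen after the data were seen, 13 were called lower and 1 higher. Their median at PN56 was -0.25 and 34 of the 40 differences were negative, against a members' median of -0.48. Over the wider class of 133 genes with a mean signal of 20000 or more, 20 were called lower and 15 higher, with a median of -0.03. The 3′ control probe set of beta-actin read 81660 ± 3540 in WT and 62490 ± 529 in Klf4CN at PN56 (SD, n = 2). That of Gapdh read 55500 ± 1340 and 48060 ± 284, and the dim one of pyruvate carboxylase 187 ± 22.8 and 183 ± 51.3, which overlapped. The share of the total signal of an array that fell on the members was 1.87 ± 0.11% in WT and 1.33 ± 0.041% in Klf4CN at PN56 (SD, n = 2), and at E16.5 it was 0.582 ± 0.053% and 0.528 ± 0.041% (SD, n = 3). The highest signal outside the control probe sets was 129102 and 145588 on the adult WT arrays. On the adult Klf4CN arrays it was 102638 and 106930, and on the embryonic arrays it lay between 45760 and 56130. The part that brightness, or a limit on the brightest signals, plays in the members' differences was not tested.

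The fit was sensitive to single adult arrays, since there were 2 per genotype. Without the second WT array at PN56, 1 member (Cryba2) was called. Without the second Klf4CN array 2 were called, Cryba2 and Cryba4. Without the first WT array or the first Klf4CN array the counts were 5 and 4. The members' median stayed between -0.61 and -0.36 in these 4 fits.

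At E16.5 no member was called between genotypes by limma, and 1 of the 13440 genes tested was (0.00744%), with 606 at an unadjusted p under 0.05. Differences of 7 members were negative, from -0.31 for Cryaa to -0.06 for Cryab, and Crybb2 had 0.34 (95% interval from -0.06 to 0.73). The members' median was -0.21. The adjusted p was 0.9998 for each of the 8. For Cryaa and Cryba2 all 3 Klf4CN arrays lay below all 3 WT arrays, as they did for 6.64% of all genes, and the other 6 members overlapped. At an unadjusted p under 0.05 there were 4 members, Cryaa (0.01468), Cryba1 (0.02694), Cryba2 (0.04205) and Crybb1 (0.04122).

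One embryonic array per genotype stood to the side for most members. The third WT array was the highest and the third Klf4CN array the lowest of its group for Cryaa, Cryba1, Cryba2, Cryba4, Crybb1 and Crybb3, while for Crybb2 the third array was the highest in both genotypes. Without the third Klf4CN array the members' median at E16.5 was -0.12, and without the third WT array it was -0.11.

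The difference between the genotype effects at the 2 ages was tested by itself. It was negative for all 8 members, from -0.21 for Crybb1 to -0.77 for Crybb2, with a median of -0.32 against -0.06 for all genes. None of the 8 was called by limma, while 4.75% of all genes were. At an unadjusted p under 0.05 there were 4 members: Crybb2 (0.01998), Cryba2 (0.02062), Cryab (0.02432) and Cryba4 (0.03539). So were 2730 of the 13440 genes tested. Their adjusted p-values ran from 0.1533 to 0.2046. A larger effect at PN56 than at E16.5 is thus not shown for any member, although 6 passed at PN56 and none at E16.5. Crybb2 had the only positive genotype difference at E16.5, and without the third embryonic WT array its difference of effects was -1.02 (adjusted p = 0.02389).

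The ratios between members changed by at most 0.165 in size between the adult genotypes. For 17 of the 28 pairs the 2 adult genotypes did not overlap, and for 11 they did. At E16.5, with 3 arrays per genotype, the genotypes did not overlap for 3 of the 28 pairs and did for 25. The pairs share members and are thus not independent, and groups of 2 arrays separate more easily than groups of 3. The share of pairs without overlap when the genotypes are alike was not tested. These counts therefore do not show that the members changed unequally. The largest change of any of the 28 pair ratios at PN56 was -0.165, for Cryba2 to Crybb2. The ratio of Cryaa to Cryba2 changed by 0.004 and that of Cryab to Crybb3 by 0.002, both with overlap of the genotypes. Relative to Crybb2, Cryaa changed by -0.161 with no overlap between the 2 groups of 2.

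Genes of the related families were set beside the members. The gamma crystallins are small monomeric relatives of the beta crystallins, and 6 of the 8 listed were named on the array and tested. At PN56, 4 of these 6 fell in the lenses labelled Klf4CN and 0 rose, with a median of -0.45, near the members' -0.48. They were Crygf (-1.03, adjusted p = 0.000382), Crygs (-0.45), Crygd (-0.50) and Crygb (-0.45), while Crygn (0.36) and Cryga (-0.17) did not pass. With age in WT, Crygs, Crygb, Crygd and Crygf rose by 0.90 to 1.60 and Crygn fell by 2.18, and the median was 1.23 against the members' 1.91.

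The other small heat shock proteins share the alpha crystallin domain, and 5 of 7 were tested. The chaperone Hspb1 had a large change with age: its mean signal went from 4329 ± 244 (SD, n = 3) to 109500 ± 7490 (SD, n = 2) in WT, a difference of 4.65 (SE 0.14). At PN56 it had a genotype difference of -0.50 (adjusted p = 0.05687). Hspb3 was the 1 gene of the list called at PN56, and it was higher (0.93, adjusted p = 0.02623). With age in WT, Hspb8 rose by 0.86 and Hspb3 fell by 2.54. Hspb2 (chr9:50751072-50752354) lies within the annotated span of Cryab. It had mean signals of 2049 ± 363 in WT at E16.5 and 1690 ± 154 in WT at PN56, a difference of -0.26 that did not pass, where Cryab rose by 1.29.

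Of 23 listed regulators of crystallin genes, 20 were tested, and 1 rose and 1 fell at PN56 in the lenses labelled Klf4CN. Mafg, a small Maf factor without a transactivation domain, rose by 0.81 (adjusted p = 0.005019), and Foxe3, a forkhead factor of the lens epithelium, fell (-1.03, adjusted p = 0.02236). Sox2 (-0.41, adjusted p = 0.05793) and Zeb2 (1.03, adjusted p = 0.0782) did not pass. Maf, the large Maf factor known to activate crystallin genes, had a difference of -0.05 (adjusted p = 0.8255) and is named for that role and not by the rule for named genes. From E16.5 to PN56 in WT, where 30.7% of all genes tested were called lower, 4 regulators rose and 11 fell, among them Mafg (-2.33), Sox1 (-1.91) and Ep300 (-1.80), and Sox2 rose by 1.36. The median of the 20 with age was -0.55, while all 8 members rose.

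Of 10 fibre cell markers other than crystallins tested at PN56, 7 fell and 0 rose in the lenses labelled Klf4CN, with a median of -0.42. The other 3, Lim2 (-0.27), Caprin2 (0.21) and Gja3 (0.05), did not pass. Among the 7 that fell were Dnase2b, the nuclease that degrades fibre cell nuclei (-1.38, adjusted p = 0.001012), Birc7 (-1.02), the beaded filament protein Bfsp1 (-0.73) and the RNA granule protein Tdrd7 (-0.68). With age in WT, 8 of the 10 rose, led by Bfsp2 (4.45), and 2 fell. The summed signal of the 10 markers lay between 458900 and 498000 in WT and between 338400 and 353300 in Klf4CN at PN56. Of 11 lens epithelium markers 5 fell and 1 rose at PN56, and their sum was between 53330 and 53830 in WT and between 39220 and 44140 in Klf4CN.

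An RNA control and markers of other tissues also differed between groups. The 5′ probe set of the 18S ribosomal RNA control read 1699 ± 1660 in WT and 8353 ± 3750 in Klf4CN at PN56 (SD, n = 2), and 1869 ± 646 and 21780 ± 945 at E16.5 (SD, n = 3). Its 3′ probe set read 2257 ± 1490 and 2943 ± 802 at PN56, which overlapped, and 516 ± 113 and 1106 ± 106 at E16.5, which did not. Its middle probe set read 2216 ± 1470 and 1962 ± 520 at PN56, with overlap, and 1209 ± 279 and 2950 ± 141 at E16.5, without. Of 10 macrophage markers, Cd68 (2.74, adjusted p = 0.00219) and Tyrobp (2.42, adjusted p = 0.00063) were called higher in Klf4CN at PN56. Their adult WT means were dim, 28.5 ± 28.8 and 15.4 ± 13.7, against 249.6 ± 27.1 and 145.6 ± 28.1 in Klf4CN (SD, n = 2). The sum of the 10 was 2118 to 2142 in WT and 2191 to 4011 in Klf4CN. Of 7 vessel endothelium markers, Tie1 was called lower (-1.19, adjusted p = 0.03427), and their sum was 324.2 to 635.8 in WT and 381.3 to 453.1 in Klf4CN. Tie1 was near the floor at PN56, with means of 26.8 ± 3.04 in WT and 2.7 ± 0.707 in Klf4CN (SD, n = 2). Both lay under the filter signal of 45.1, which it passed through its embryonic signals.

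At PN56 the summed signal of the 9 pigment cell markers was 7659 to 9318 in WT and 4021 to 4147 in Klf4CN, with 0 of 7 tested markers called. That of 6 cornea markers was 11370 to 13330 in WT and 5324 to 6575 in Klf4CN, with 1 of 3 tested, Aldh3a1, called lower. Lum was not called (adjusted p = 0.2012). Aldh3a1, with means of 12030 and 5670, made up nearly all of that sum. Kera was under a signal of 16 on both Klf4CN arrays. The 10 photoreceptor markers summed to 6068 to 6656 in WT and to 4648 to 15370 in Klf4CN, with Prph2 under 16 on all 4 arrays. At E16.5 the pigment sum was 1182 to 2608 in WT and 2557 to 8774 in Klf4CN, and the sum of 9 retinal neuron markers was 858.8 to 5031 and 4126 to 11410. The part of these markers and controls in the members' differences was not tested.

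The genes most like each member were found by the root mean square difference of log2 signals over the 10 arrays, each gene centred on its mean. Cryaa was nearest to Cryba1 (0.106), Crybb1 (0.119) and Crybb3 (0.128), all members. Cryba1 and Crybb3 were nearest to each other (0.062), and Cryba2 was nearest to Crygb (0.097), a gamma crystallin, followed by Cryba1 (0.1) and Crygd (0.107). All 3 genes nearest to Cryaa and Cryba1 were members.

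Cryab and Cryba4 had nearest genes outside the crystallins. For Cryab they were Ncl, Cd24a and Otud6b (0.067 to 0.079), and for Cryba4 they were Rps2 (0.068), then Cryab (0.081) and Lim2 (0.085), a membrane protein of fibre cells. Crybb1 was nearest to Cryaa, then Park7 (0.151) and Dbp (0.158), and Crybb3 had Cryba1, Cryba2 (0.107) and Hnrnpdl (0.113). Nearest to Crybb2 were Clec3b (0.288), Col4a4 (0.335) and Rxrg (0.355), none of them a crystallin. The centred profile of Crybb2 had a root mean square of 2.35, against 0.565 for Cryab and 0.998 for Cryaa. As a share of the own profile, the nearest gene lay at 0.122 for Crybb2, 0.119 for Cryab and 0.106 for Cryaa, and at 0.0682 for Cryba1, the smallest.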

How the data were processed

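Whole lens RNA was measured on Affymetrix mouse 430 2 arrays, after RNeasy extraction and labelling with the 3' IVT Express kit, per the labels' protocols. The deposited values were linear signal intensities, 1 per probe set and array, made with GCOS 1.4 per the submitters' processing notes. Each array had a 2% trimmed mean of 500 (tested on the values). Whether the brightest signals were compressed near the scanner's limit is not given in the sources used here. Of 45101 probe sets, 64 were controls, 34945 had 1 gene symbol, 932 several and 9160 none, from the platform annotation, with symbols updated through RefSeq gene numbers. No 2 arrays were identical (0 pairs), and p-values measure the spread between the independent pooled preparations. Array number, 2 or 3 per group, limits the precision.

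Signals were tested as log2(signal + 16) without rescaling, so folds of dim genes are understated. A gene was represented by the probe set with the highest mean log2 value, and genes whose mean fell below percentile 40 of the array (a signal of 45.1) were dropped, leaving 13440. limma 3.58.1 (R 4.3.3) fitted 4 group means to all 10 arrays with an intensity trend, and adjusted p-values (Benjamini-Hochberg, two-sided, threshold 0.05) are from this fit. The fit was run on simulated data with normal noise and no scaling differences between arrays. Only the size of the estimates had to pass there, so that run does not bear on scaling or brightness. The members and all gene lists were chosen with earlier results of these data known. Named genes were the members, the 3 genes most like each, up to 4 genes of smallest p per list and Klf4. Hspb2, Crygn, Cryga, Maf, Lim2, Caprin2 and Gja3 were named outside this rule. Alternatives covered scaling, offset, filter, probe sets, variance model, left-out arrays and the replicate block. Promoters came from RefSeq (GRCm38.p6).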

Additional observations from a re-analysis of the deposited data

How the results depend on the processing

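With age the count of members called was 8 in each genotype under all alternatives run except quantile normalization, where it was 6 in WT and 7 in Klf4CN, 1 of these lower; the WT median went from 1.91 to 1.01 with the hybridisation controls and 0.79 with quantile normalization. At E16.5 the count was 0 under all alternatives run. At PN56 the count of 6 became 0 with quantile normalization, 1 with median centring, 0 with the hybridisation controls as reference, 1 without an intensity trend, 1 with array weights, 2 with only the compared groups and 1 at a threshold of 0.01; leaving out 1 array gave 1 to 7. The lone array left in a group was then taken to vary like the others. For the difference of the genotype effect, the count of 0 became 3 with loess, 1 with probe sets of a gene averaged, and 0 to 1 with 1 array left out. The share of all PN56 calls that were higher was 46.4% as deposited, 71.9% with median centring and 98% with the hybridisation controls.

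Replicate numbers are shared between genotypes, but same-numbered embryonic arrays had correlations of deviations of 0.269, 0.242 and 0.051, and adult ones of 0.043, so the numbers were not taken to pair the arrays; the third embryonic WT array correlated best with another number (0.063). With the replicate number as a block, 6 members were called at PN56 (Crybb2 in place of Crybb1), 1 for the difference of effects (Crybb2), 8 and 8 with age and 0 at E16.5.

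These values changed sign. With quantile normalization, at E16.5: Cryab 0.071, Cryba4 0.022. For the difference of effects: Cryba1 0.082, Crybb1 0.10, Crybb3 0.042. With age: Cryab -0.11 (WT) and -0.21 (Klf4CN, called), Cryba4 -0.15 (Klf4CN). Cyclic loess gave Cryab 0.035 at E16.5, and leaving out the third embryonic WT array gave 0.022. With the hybridisation controls, at E16.5: Cryab 0.15, Cryba4 0.072, Crybb3 0.0037. At PN56: Cryaa 0.021, Cryab 0.17, Cryba1 0.070, Cryba2 0.018, Cryba4 0.14, Crybb1 0.13, Crybb2 0.18, Crybb3 0.17. For the difference of effects: Cryaa 0.12, Cryab 0.026, Cryba1 0.15, Cryba2 0.020, Cryba4 0.065, Crybb1 0.20, Crybb3 0.17. The cause was not tested. Of 192 member values at PN56 under alternatives, 134 kept direction and side of the threshold, 47 lost the call, 3 gained it and 8 changed sign. Settings such as a left-out embryonic array could change the spread but not the PN56 difference itself.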

Other observations

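Hspb1, the small heat shock protein with the largest rise with age in its list, had signals of 4329 ± 244 in WT and 7081 ± 1430 in Klf4CN at E16.5 (SD, n = 3) and of 109500 ± 7490 and 77330 ± 1260 at PN56 (SD, n = 2). Its genotype difference was 0.69 at E16.5 (adjusted p = 0.2473) and -0.50 at PN56. The difference of the 2 effects was called by limma (-1.19, adjusted p = 0.009627), which was so for none of the 8 alpha and beta crystallins.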
